A study of Mus musculus with 8 samples.

Results

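The genes described are 10 members of the Notch pathway: the receptors Notch1, Notch2, Notch3 and Notch4, the ligands Jag1, Jag2 and Dll1, and the target genes Hes1, Hey1 and Heyl. They were taken by gene name from the probes present on both array designs of the study, which gave 13 of 39429 probes and 10 of 30139 genes. Dll1, Notch1 and Notch2 had 2 probes each, and every other member had 1. Expression was measured on 8 Agilent arrays of 1 colour, each carrying RNA of GFP-positive cells sorted from kidney rudiments of NMRI mouse embryos at E11.5, when the bud of the ureter has entered the mesenchyme of the future kidney. The product of Tbx18 is a T-box factor made by cells that surround the young ureter. The 3 control arrays came from Tbx18(GFP/+) embryos, the 3 Tbx18 null arrays from Tbx18(GFP/GFP) embryos, and the 2 Tbx18VP16 arrays from Tbx18(cre/+);Hprt(CAG:Tbx18VP16-GFP) embryos, in which Tbx18 is fused to the activation domain of VP16. Every group thus carried at least 1 altered Tbx18 allele, the controls included, and no wild-type group was measured. The sorted GFP came from the Tbx18 locus in control and null cells. In Tbx18VP16 cells it came from a transgene at Hprt with the CAG promoter, in embryos that carry Cre at the Tbx18 locus.

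Notch receptors are membrane proteins that are cut when a ligand on a neighbouring cell, of the Jagged or Delta-like kind, binds them. The freed intracellular domain enters the nucleus, joins the DNA-binding protein RBPJ and Mastermind co-activators, and switches on target genes such as those of the Hes and Hey families, which encode repressors. In the embryonic kidney the pathway is best known for the segmentation of early nephrons, and elsewhere for arterial endothelium, in which Notch1, Notch4 and Dll4 act, and for mural cells, in which Notch3 acts.

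Each pool held about 100000 cells of both sexes, and 60.1% to 66.0% of probes stood well above background per array. No spot was saturated. Tbx18, the altered gene, had levels of -0.02, 1.20 and 1.04 in control pools 1 to 3, -2.40, -1.34 and -2.35 in null pools 1 to 3, and 1.34 and 1.06 in the Tbx18VP16 pools, so that null pools lay below all others. A level is the log2 signal relative to the array's 75th percentile. The sources used here do not place the Tbx18 probe relative to the replaced part of the gene. Same-numbered control and null pools deviated together (correlations of 0.402 to 0.794) and are treated as pairs where a pair is named. Control and null pools 3 were started from 10 ng of RNA, and the other pools from 20 ng. Pools 3 lay on a slide of their own, and both Tbx18VP16 pools lay on another slide and another array design, so that the Tbx18VP16 genotype and the slide, the scan and the design cannot be told apart. A gene was called when its adjusted p (limma, Benjamini-Hochberg over all genes) was below 0.05. Of 9 members tested in null over control, 0 were called, with 0% of all genes. Of 10 tested in Tbx18VP16 over control, 2 were called as higher, Jag2 and Dll1, and 0 as lower, against 5.32% of all genes, 2.04% as higher and 3.28% as lower.

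Sequences of some probes and promoters are shown as a description. The first 2 are the second probes of Notch1 and Notch2, which gave other values than the brighter probe of the same gene. Each has at least 1 reading frame without a stop codon. They lie on mm9 at chr2:26319440-26319499 (minus strand) and chr3:97951233-97951292 (plus strand), and are printed as the 60 bases on the array, 5′ to 3′.
Notch1 second probe: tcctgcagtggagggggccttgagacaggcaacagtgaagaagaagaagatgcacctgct
Notch2 second probe: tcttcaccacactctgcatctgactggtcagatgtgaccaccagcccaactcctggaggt

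Promoters were read for T-box and RBPJ motifs because the study alters a T-box factor and the members include Notch targets. RefSeq windows (GRCm38.p6) of 250 bases before the start were at hand for 7 of the 10 members, in 8 windows. None was at hand for the targets Hes1, Hey1 and Heyl, so the counts below cover receptors and ligands only. The T-box half-site GTGTGA (or TCACAC on the other strand) was in 1 of the 8, that of Notch4, and in 12.3% of the 32851 promoters of all genes. The RBPJ core TGGGAA (or TTCCCA) was in 0 of the 8 and in 21.6% of all promoters. No match of 1 motif overlapped a match of the other in these windows. A motif that is not in a window says only that its letters are not there, and a match is a description of the letters. Dll1 was called in Tbx18VP16 over control. Jag1 was not, although its Tbx18VP16 pools lay above all others. Shown are the first 240 bases of 1 of the 2 windows of Dll1, and of the windows of Jag1 and Notch4. They lie at chr17:15376943-15377182 (minus strand), chr2:137116531-137116770 (minus strand) and chr17:34564045-34564284 (plus strand), and capitals mark the half-site of Notch4, whose first base is at -67 from the start. A second match in Notch4, at -7, lies past the end of the printed stretch.
Dll1 promoter: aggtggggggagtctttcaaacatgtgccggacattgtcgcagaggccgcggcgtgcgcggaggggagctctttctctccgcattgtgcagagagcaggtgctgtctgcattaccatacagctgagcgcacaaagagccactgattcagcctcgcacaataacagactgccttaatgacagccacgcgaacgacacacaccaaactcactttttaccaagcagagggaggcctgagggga
Jag1 promoter: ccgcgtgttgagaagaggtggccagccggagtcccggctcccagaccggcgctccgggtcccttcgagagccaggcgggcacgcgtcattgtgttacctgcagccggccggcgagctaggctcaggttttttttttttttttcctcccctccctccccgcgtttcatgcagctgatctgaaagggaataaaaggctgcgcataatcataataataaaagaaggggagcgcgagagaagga
Notch4 promoter: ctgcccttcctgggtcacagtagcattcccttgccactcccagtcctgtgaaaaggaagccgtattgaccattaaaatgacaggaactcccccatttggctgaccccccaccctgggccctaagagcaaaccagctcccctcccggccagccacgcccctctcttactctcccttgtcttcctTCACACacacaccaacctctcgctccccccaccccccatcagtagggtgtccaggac
The GC content of the full windows shown was 56.0% for Dll1, 57.2% for Jag1 and 58.4% for Notch4. It was 64.0% in the other Dll1 window, 87.2% for Jag2, 66.0% for Notch1, 72.0% for Notch2 and 68.8% for Notch3, against a median of 52.4% over all promoters.

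**Figure D1:**
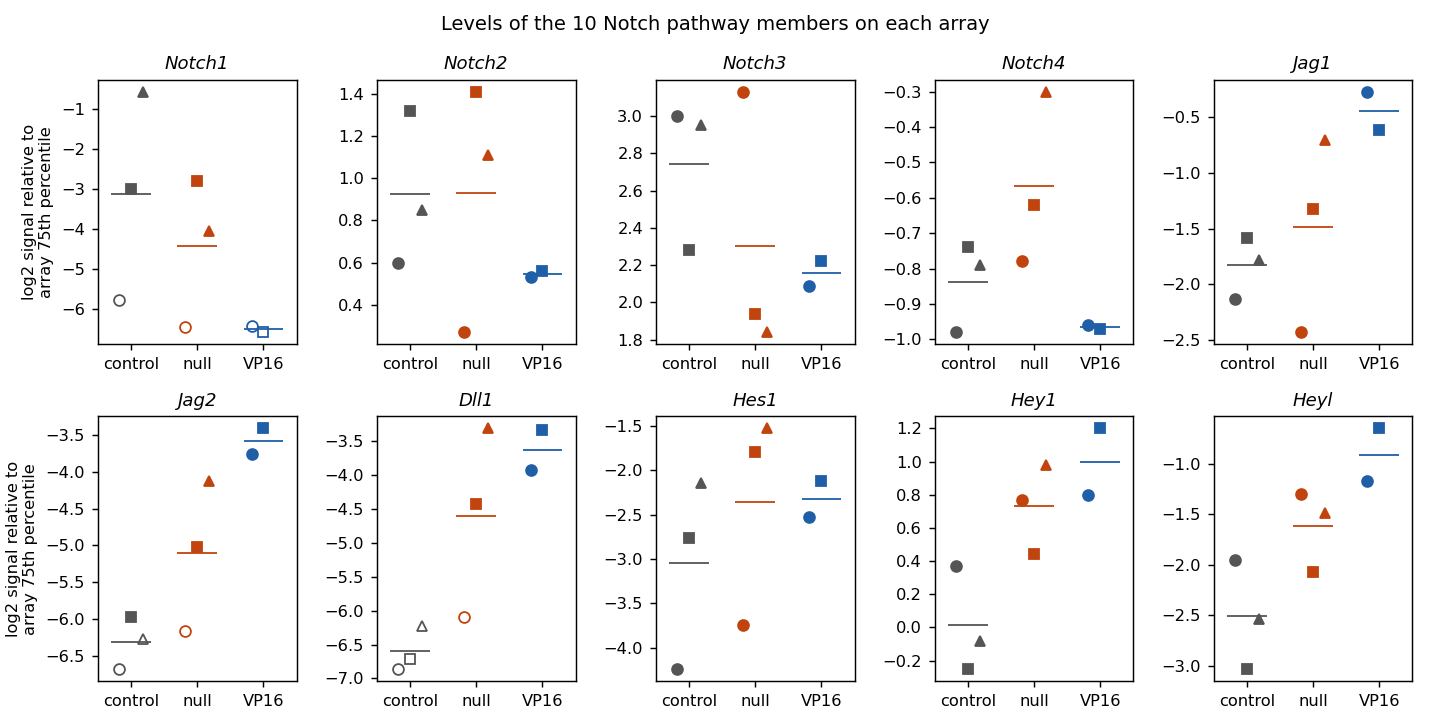
Level of each of the 10 members on each array (y axis, log2 signal relative to the array's 75th percentile, with a scale of its own in each panel) in control, null and Tbx18VP16 pools. Circles, squares and triangles are pools 1, 2 and 3, open symbols are not well above background, and lines are group means. The Tbx18VP16 pools of Jag2 (-3.76 and -3.41) lie above all other pools, and those of Notch1 (-6.42 and -6.57) are open.

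Among the ligands, Jag2 and Dll1 rose in Tbx18VP16 pools, from levels at or near background in control. Jag2, a Jagged ligand, had levels of -6.68, -5.98 and -6.27 in control pools 1 to 3, of which only pool 2 was well above background. Null pools 1 to 3 gave -6.17, -5.02 and -4.12, and the Tbx18VP16 pools gave -3.76 and -3.41. Both Tbx18VP16 pools were above every other pool, while null pool 1 fell within the range of the controls. Over control, Jag2 rose by a log2 change of 2.72 ± 0.54 (SE, n = 2 and 3), with an adjusted p of 0.0298. With 1 of 3 control arrays well above background, the size of this change is uncertain. Of 20599 genes tested in this comparison 420 rose and 675 fell. The median change of the members was 0.86, and that of all genes -0.141.

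Dll1, a Delta-like ligand, gave -6.86, -6.72 and -6.22 in control pools 1 to 3, none of them well above background. In null pools it gave -6.09, -4.42 and -3.31, with pools 2 and 3 well above background, and in Tbx18VP16 pools -3.92 and -3.34. The Tbx18VP16 pools were above every control pool but not above null pool 3. Against control, Dll1 rose in Tbx18VP16 (fitted log2 change 2.97 ± 0.69, 95% interval 1.37 to 4.56, adjusted p 0.0496). With dim control arrays set to a floor, its group means differed 6.29-fold. For this floor, each dim array was set to its lowest signal well above background, or to the probe's own signal where higher. The groups' means were then compared. Some signals that were not well above background lay above this floor, so the fold is no minimum. It also does not allow for the spread between pools, which the interval gives. The Dll1 probe lies on mm9 at chr17:15504623-15504682 (minus strand). The other Dll1 probe, at chr17:15513726-15513785, was well above background only in control pool 2, and no comparison is drawn from it.

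Both calls changed with settings. With normexp background correction the change was 0.94 for Jag2 (adjusted p 0.0771) and 0.87 for Dll1 (0.126). Leaving out any 1 of the control pools, null pool 2 or either Tbx18VP16 pool ended both calls, with adjusted p from 0.0515 (without null pool 2) to 0.293 (without Tbx18VP16 pool 2) for Jag2, and from 0.0724 (without control pool 3) to 0.376 (without Tbx18VP16 pool 2) for Dll1. The pair of control and null pools as a random block ended both as well (0.0577 for Jag2, 0.0913 for Dll1). The call of Dll1 alone was lost with quantile normalisation (0.0554), the authors' deposited values (0.0585) and the mean of probes (0.0509). Without control and null pools 3 together, an alternative chosen after seeing the data, both were called (0.0368 for Jag2, 0.0408 for Dll1).

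Jag1, the other Jagged ligand, which early nephrons use, gave -2.13, -1.58 and -1.78 in control, -2.43, -1.32 and -0.70 in null, and -0.27 and -0.61 in Tbx18VP16 pools. The Tbx18VP16 pools were above all others, and null pools spread below and above the controls. Its change in Tbx18VP16 over control was 1.39 ± 0.47, with an adjusted p of 0.131. It was called (0.0285) without null pool 1 and with only the arrays of control and Tbx18VP16 (0.0385).

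In null pools against control, no ligand was called. Within pairs 1 to 3 the null pool differed from its control pool by 0.51, 0.96 and 2.15 for Jag2, and by -0.29, 0.25 and 1.08 for Jag1. For Dll1, which was well above background on only 2 of these 6 arrays and was not tested, the pairs differed by 0.77, 2.30 and 2.91, against control signals that were not well above background. In pair 1 neither array was well above background for Jag2 or Dll1, so no direction is read there, and in pairs 2 and 3 the null pool was higher for both genes. The fitted changes were 1.21 ± 0.51 for Jag2, which missed the threshold also with the pair as a block (adjusted p 0.224), and 0.35 ± 0.45 for Jag1. Without null pool 3, the change of Jag1 was -0.04.

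Markers of other cells also differed within these pairs. The summed signal of 14 endothelial markers differed by 0.15, 0.20 and 2.44 in pairs 1 to 3, that of 14 ureteric epithelial markers by 0.31, 0.69 and 2.06, and that of 9 erythroid markers by -0.24, 1.24 and 4.13. Pair 3 was highest in each of these lists. It was lowest for 8 markers of early nephron aggregates, whose sum differed by 1.27, 0.96 and 0.22. That order did not hold for the mean level of these markers. From control to null, the mean went from -2.19 to -1.46 in pair 1, -2.38 to -1.01 in pair 2 and -2.16 to -0.81 in pair 3. By group means, all 14 tested endothelial markers, 13 of 14 epithelial and 8 of 9 erythroid markers were higher in null than in control, and none was called. Within pairs 1 and 2, some endothelial markers were higher and others lower in null. From control to null, their mean level went from -4.11 to -3.94 in pair 1, -3.09 to -2.93 in pair 2 and -3.78 to -0.27 in pair 3. Cldn5, an endothelial claudin, had a change of 2.44 ± 1.03, and Krt18, an epithelial keratin, one of 2.18 ± 0.58. The log2 summed endothelial signal lay between 1.93 and 2.20 in control, 2.24 and 4.37 in null and 1.12 and 1.42 in Tbx18VP16 pools. Sox17 was well above background in no control and no Tbx18VP16 pool, and Flt1 and Tie1 in no Tbx18VP16 pool. The part of these cells in the ligands' differences between null and control was not tested. In bulk samples, fewer cells of a type and less RNA per cell cannot be told apart. Against control, the endothelial sum was lower in both Tbx18VP16 pools. The mean level of the markers overlapped, at -4.32 and -3.88 in Tbx18VP16 pools and -4.11, -3.09 and -3.78 in control pools. Of the 14 markers 10 were lower and 4 higher, while 40.8% of all genes were higher. Kdr, an endothelial receptor of VEGF and the only marker of the list called, fell by 1.34 on the log2 scale (SE 0.30, adjusted p 0.0415). The part of these cells in the ligands' Tbx18VP16 values was not tested either.

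The epithelial sum in Tbx18VP16 (2.19 to 2.41) was within or just above the control range (1.60 to 2.25), and Cdh1, the cadherin of epithelia, was well above background in no Tbx18VP16 pool. The summed signal of 14 nephron progenitor markers lay between 5.12 and 5.52 in control, 5.98 and 6.12 in null and 6.04 and 6.11 in Tbx18VP16 pools, so that both altered genotypes lay above control. In the Tbx18VP16 comparison, 11 of the 14 were higher and 3 were called, among them Wt1 (2.61 ± 0.30) and Meox1 (3.89 ± 0.65), transcription factors of the progenitors. Its part in the ligands' changes was not tested.

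**Figure D2:**
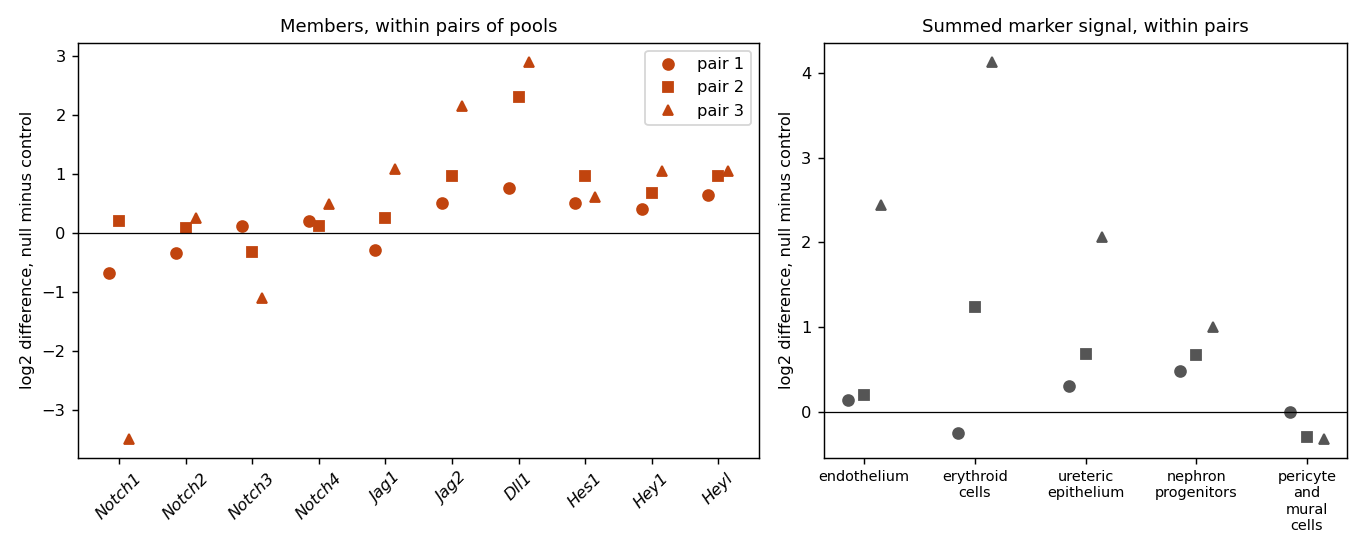
Left, the log2 difference of each member between the null and the control pool of a pair. Right, the same difference for the summed signal of 5 lists of cell type markers. Circles, squares and triangles are pairs 1, 2 and 3. The null pool was higher in all 3 pairs for Hes1, Hey1, Heyl and Notch4. In pair 1 of Jag2 and Dll1 neither pool was well above background, and pair 3 stands highest for the endothelial sum (2.44) and the erythroid sum (4.13).

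No receptor was called in any comparison by its brighter probe. Notch3, the receptor of mural cells, had levels of 3.0, 2.28 and 2.95 in control, 3.13, 1.94 and 1.84 in null, and 2.09 and 2.22 in Tbx18VP16 pools. Both Tbx18VP16 pools lay just below the lowest control pool, and null pools lay on either side of that pool. The change was -0.59 ± 0.42 in Tbx18VP16 over control (95% interval -1.56 to 0.39) and -0.44 ± 0.41 in null over control (-1.40 to 0.52). The pairs differed by 0.12, -0.33 and -1.11. The summed signal of 8 pericyte and mural cell markers differed by 0.01, -0.29 and -0.31 in the same pairs, and its part in the Notch3 values was not tested. These sums lay between 4.94 and 5.20 in control, 4.65 and 5.21 in null and 5.25 and 5.48 in Tbx18VP16 pools. The mural sum was thus highest in Tbx18VP16 where Notch3 was not, but its markers were divided. Of the 8 markers, 5 were higher and 3 lower in Tbx18VP16 over control. Mcam, the brightest of them on every array, was highest in the Tbx18VP16 pools (4.66 and 4.62). Rgs5, a pericyte marker, was lower in Tbx18VP16 pools (0.94 and 0.5) than in control pools (2.81, 2.87 and 2.35).

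Notch2, the receptor that nephron formation depends on, gave 0.60, 1.32 and 0.85 in control, 0.27, 1.41 and 1.11 in null, and 0.53 and 0.56 in Tbx18VP16 pools with its brighter probe, on mm9 at chr3:97953914-97953973. Null and control overlapped in full, and the Tbx18VP16 pools lay just below the lowest control pool. The changes were 0.01 ± 0.36 in null over control (95% interval -0.85 to 0.86) and -0.38 ± 0.37 in Tbx18VP16 over control (-1.24 to 0.48). The sign in null over control was not stable, with -0.24 without null pool 2 as the lowest value.

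The second Notch2 probe, printed above, behaved differently in Tbx18VP16 pools. It gave -5.45, -5.39 and -5.76 in control, -5.18, -5.45 and -5.76 in null, and -7.19 and -6.69 in Tbx18VP16 pools. Control pool 1 and both Tbx18VP16 pools were not well above background. Its signals before scaling were 22.2 to 34.0 in control and null pools and 14.5 and 20.6 in Tbx18VP16 pools. Those of the brighter probe were 1250 to 3950. All 6 control and null arrays were above both Tbx18VP16 arrays. In a limma fit over all probes its change was -1.41 ± 0.28 (adjusted p over probes 0.0352) over control and -1.48 ± 0.28 (0.0392) over null. The dim Tbx18VP16 signals make these fitted values no measure of size. The same fit gave -0.38 ± 0.38 and -0.39 ± 0.38 for the brighter probe. The 2 probes of Notch2 thus disagree, and only the brighter 1 was well above background on every array. The printed sequence was the same on both array designs.

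Notch1, the receptor best known in arterial endothelium and blood, gave its widest spread within groups of all members. Its brighter probe, on mm9 at chr2:26314630-26314689 (minus strand), gave -5.76, -2.99 and -0.56 in control, -6.43, -2.79 and -4.04 in null, and -6.42 and -6.57 in Tbx18VP16 pools. Pool 1 of control and of null and both Tbx18VP16 pools were not well above background. The fitted change of -3.39 ± 1.46 in Tbx18VP16 over control (95% interval -6.76 to -0.03) had an adjusted p of 0.216, and without control pool 3 the change was -2.12. Dim signals in both groups make these fitted values no measure of size. This probe holds 26 A bases of 60, more than 96.5% of all probes, and its part in the spread was not tested. The second probe, printed above, gave -5.38, -4.68 and -5.16 in control, -5.40, -5.05 and -4.79 in null, and -5.43 and -5.84 in Tbx18VP16 pools. All of these 8 values lie within a range far narrower than that of the first probe. The change of the second probe in Tbx18VP16 over control was -0.56 ± 0.31 (adjusted p over probes 0.341). Its signals before scaling were only 23.4 to 58.2, and Tbx18VP16 pool 2 was not well above background. Signals this low leave little room to show a fall.

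Notch4, the receptor of endothelium, had levels of -0.98, -0.74 and -0.79 in control, -0.78, -0.62 and -0.30 in null, and -0.96 and -0.97 in Tbx18VP16 pools. Null pools were higher by 0.21, 0.12 and 0.49 in pairs 1 to 3, and both Tbx18VP16 pools lay within the control range. The changes were 0.27 ± 0.24 in null over control (95% interval -0.28 to 0.83) and -0.13 ± 0.23 in Tbx18VP16 over control (-0.67 to 0.41). Beside it stood the endothelial sums given above, highest in null pool 3 and lowest in the Tbx18VP16 pools. Their part in the Notch4 values was not tested.

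Among the targets, Hey1 and Heyl were higher in both altered genotypes than in control by their means, and neither passed the threshold. Hey1, a repressor of the Hey family, gave 0.37, -0.25 and -0.08 in control, 0.77, 0.44 and 0.98 in null, and 0.80 and 1.20 in Tbx18VP16 pools. All 5 pools of the altered genotypes were above every control pool, and the null and Tbx18VP16 pools overlapped. The change was 0.71 ± 0.27 in null over control (adjusted p 0.904, and 0.170 with the pair as a block) and 0.99 ± 0.29 in Tbx18VP16 over control (0.0926). The pairs differed by 0.40, 0.68 and 1.06. Hey1 was the only 1 of the 9 tested members whose null and control pools did not overlap, against 7.75% of all 19710 genes tested, 4.18% as higher and 3.58% as lower.

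Heyl, the third member of that family, gave -1.95, -3.03 and -2.54 in control, -1.30, -2.07 and -1.49 in null, and -1.17 and -0.65 in Tbx18VP16 pools. The Tbx18VP16 pools were above all others, and null pool 2 fell within the control range. The change was 1.60 ± 0.38 in Tbx18VP16 over control (95% interval 0.72 to 2.47), with an adjusted p of 0.0525 that missed the threshold. It was called without control pool 1 (0.0368) and without null pool 1 (0.0385). In null over control the change was 0.89 ± 0.35, and the pairs differed by 0.64, 0.97 and 1.06. With the pair as a block the adjusted p was 0.0782.

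Hes1, the target found in most Notch responses, varied as much within groups as between them. It gave -4.24, -2.76 and -2.14 in control, -3.74, -1.80 and -1.53 in null, and -2.53 and -2.12 in Tbx18VP16 pools. Pool 1 was lowest in control and in null, and the 3 groups overlapped. Within pairs the null pool was higher by 0.51, 0.96 and 0.61. The change was 0.69 ± 0.73 in null over control (adjusted p 1 without and 0.134 with the block) and 0.72 ± 0.76 in Tbx18VP16 over control (0.611). The interval of the second, -1.04 to 2.48, includes both a fall and a rise of more than 2-fold.

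**Figure D3:**
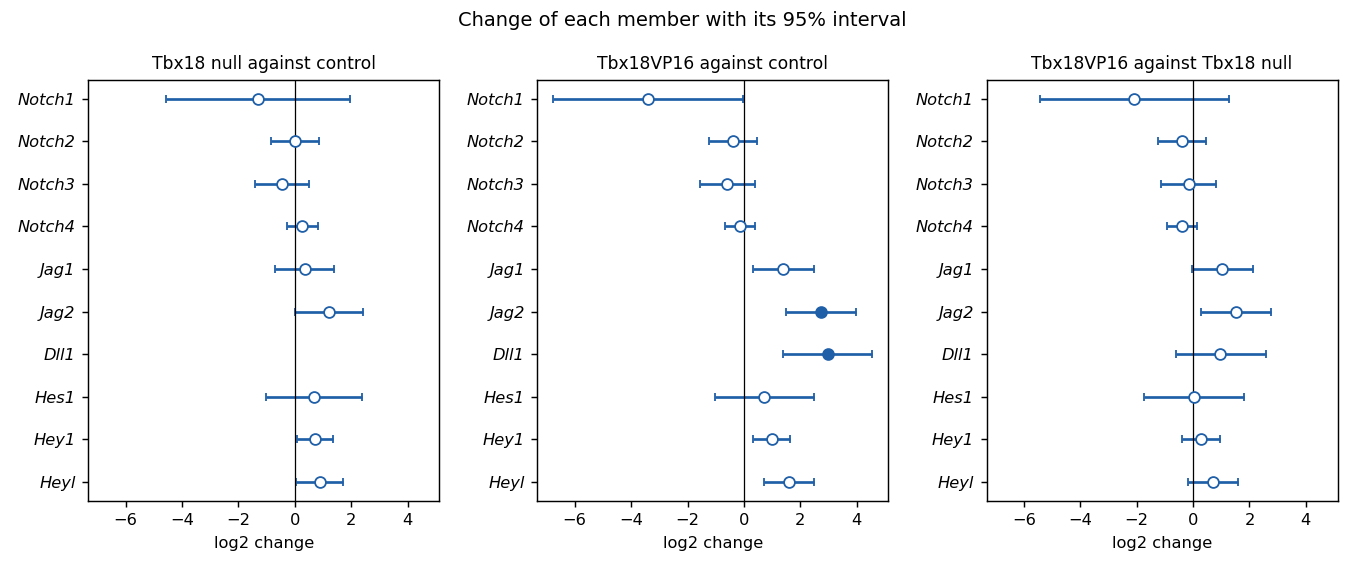
Fitted log2 change of each member (point) with its 95% interval (bar) in the 3 comparisons. Filled points passed the threshold. The 2 filled points are Jag2 (2.72) and Dll1 (2.97) in Tbx18VP16 over control, and Dll1 has no point in null over control, where it was not tested.

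Against control, 5 of 10 members did not overlap and were higher in Tbx18VP16 (Jag1, Jag2, Dll1, Hey1 and Heyl), and 3 did not overlap and were lower (Notch1, Notch2 and Notch3). With 2 arrays against 3, 47.6% of all genes did not overlap, 17.4% as higher and 30.3% as lower. The 3 of 10 members that were lower are about the share of all genes, and none of them was called. Hes1 and Notch4 overlapped. Of the members 6 were higher and 4 lower by their fitted change. The sign of Notch2 and Notch4 against control turned with a scaling in which the percentile covers all spots of each design, and which gave 0.08 and 0.33 and moved the median of all genes from -0.14 to 0.32. Of all calls in this comparison 38.4% were higher, against 81.9% with that percentile, 47.2% with quantile normalisation and 50% in the authors' deposited table.

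Set directly against null, 0 of 10 members were called in Tbx18VP16 pools, with 3.66% of all genes called (1.17% as higher, 2.49% as lower). The smallest member adjusted p was 0.155, that of Jag2. The Tbx18VP16 and null pools did not overlap for Jag1, Jag2 and Heyl, which were higher, and Notch4, which was lower, against 48.1% of all genes, 16.2% as higher and 31.9% as lower. The changes were 1.52 ± 0.54 for Jag2, 1.04 ± 0.47 for Jag1, 0.71 ± 0.38 for Heyl and -0.40 ± 0.23 for Notch4. For Hey1 the change was 0.28 ± 0.29 with a 95% interval of -0.39 to 0.94, and for Dll1 0.97 ± 0.69 (-0.62 to 2.57). These intervals leave room for a difference of either sign. Of all calls here 32.0% were higher, against 81.4% with the percentile over all spots, 46.0% with quantile normalisation and 49.7% in the authors' deposited table. The comparisons of null and of Tbx18VP16 with control share the 3 control arrays.

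In null over control, 7 of the 9 tested members were higher and 2 lower, with a median change of 0.35 against 0.007 for all genes. None was called, as 0% of the 19710 genes tested were called by limma, of which 952 had an unadjusted p under 0.05. With the pair as a block, 0.964% of genes were called and 0 of the members.

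Of 50 other genes of the pathway, 49 were on the arrays and 48 were tested. In null over control 26 were higher and 22 lower, 0 were called, and the median change was 0.01. In Tbx18VP16 over control 19 were higher and 29 lower, and the median was -0.08. Of these 48, 1 was called as higher and 1 as lower. Of all genes in that comparison 5.32% were called and 40.8% were higher. Rbpj, the DNA-binding partner of the receptors, had a change of 0.08 ± 0.28 in null and 0.15 ± 0.28 in Tbx18VP16 over control, with intervals of -0.57 to 0.73 and -0.49 to 0.80. None of the 5 other ligands and 4 ligand endocytosis genes was called in any comparison.

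Aph1b, a subunit of the gamma-secretase that cuts the receptors, rose in Tbx18VP16 pools. Its levels were -1.57, -1.70 and -1.15 in control, -2.55, -2.27 and -2.75 in null, and 0.00 and -0.33 in Tbx18VP16 pools. The 3 groups did not overlap. It rose by 1.31 ± 0.27 in Tbx18VP16 over control (adjusted p 0.0348) and by 2.36 ± 0.27 over null (0.00773), and its change in null over control was -1.05 ± 0.26 (0.381). Aph1c, a near-identical copy in mouse, had no probe of its own here, so the signal cannot be assigned to Aph1b alone.

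Dtx4, a Deltex ubiquitin ligase, gave 0.35, -0.33 and -0.40 in control, 0.18, -0.95 and -1.0 in null, and -1.80 and -2.35 in Tbx18VP16 pools. Both Tbx18VP16 pools were below all others. It fell by 1.95 on the log2 scale in Tbx18VP16 over control (SE 0.42, adjusted p 0.0401). Dtx1, a related ligase, had a change of -1.40 ± 0.41 (0.0934), and Dtx3l, which resembles them, one of 1.07 ± 0.29 (0.0755) in Tbx18VP16 and of 1.33 ± 0.28 (0.278) in null over control. For Dtx3l all 5 pools of the altered genotypes were above every control pool.

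Of the other Hes and Hey genes, Hey2 was lower in null pools (-3.01, -2.60 and -2.93) than in control pools (-1.37, -1.41 and -1.87) without overlap. Its change was -1.30 ± 0.26, with an adjusted p of 0.216 and of 0.0544 with the block, the opposite sign of Hey1 and Heyl in the same pools. In Tbx18VP16 pools Hey2 gave -1.69 and -1.96, a change of 1.02 ± 0.26 over null (0.0722). Hes7 was lower in Tbx18VP16 pools (-1.44 and -1.35) than in control pools (-0.23, 0.05 and -0.61), with a change of -1.13 ± 0.27 (0.0547), and of -1.18 ± 0.27 (0.0572) over null.

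Mfng, a fringe enzyme that adds sugars to the receptors, had a change of 1.51 ± 0.60 in null over control (adjusted p 0.954), with -2.26, -2.25 and -0.07 in null pools 1 to 3 and -2.67, -3.11 and -3.33 in control pools. Null pool 3, the pool with the highest endothelial sum, lay apart, and the part of endothelial cells in this was not tested. Dll4, the endothelial Delta-like ligand, was not called in Tbx18VP16 over null (adjusted p 0.0609). With the floor used for Dll1, its group mean was 2.55-fold lower in Tbx18VP16, which is no minimum either. In null it was well above background in all 3 pools and was highest in pool 3, at -3.92.

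**Figure D4:**
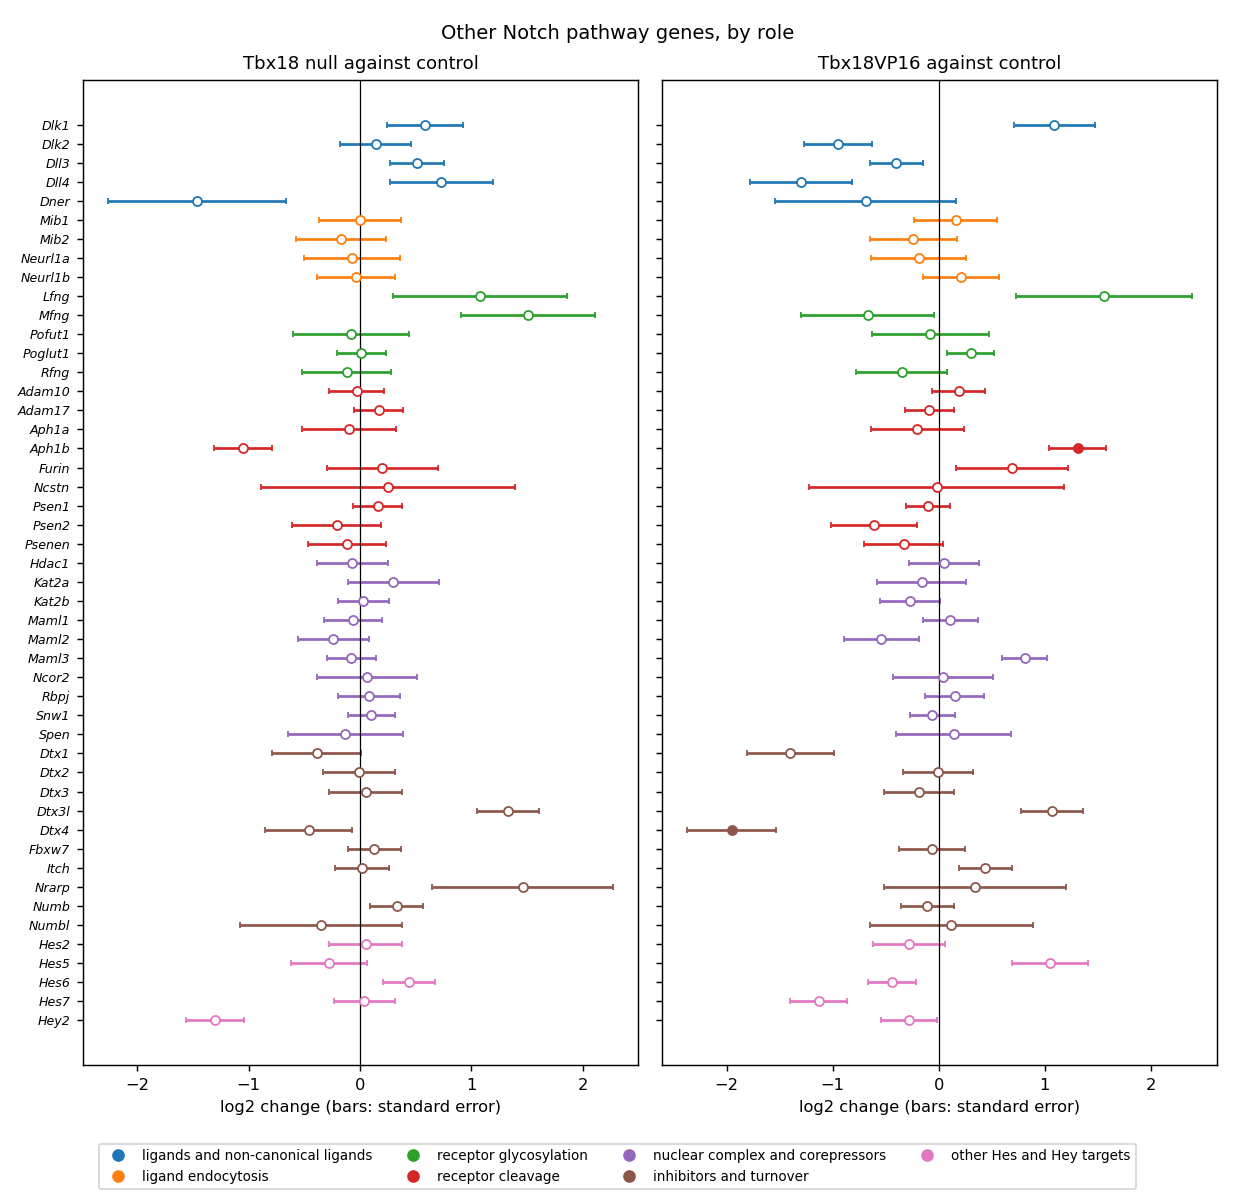
Fitted log2 change (x axis, bars are standard errors) of the 48 other pathway genes tested, coloured by role, in null over control (left) and Tbx18VP16 over control (right). Filled points passed the threshold: Aph1b (1.31) and Dtx4 (-1.95), both in Tbx18VP16.

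For the 3 members whose group means spanned the widest range, the genes of most similar level over the 8 arrays were listed as a description. Notch1 was closest to Fgd5 (Pearson r 0.995), Vmn1r185 (0.995) and Ccdc73 (0.994). Dll1 was closest to Ccdc69 (0.985), Lrrc8d (0.983) and Irx3 (0.978), and Jag2 to Pf4 (0.994), Rad54l2 (0.992) and Mcoln3 (0.990). The 8 points share 3 genotypes, slides and pools, and many genes were searched, so these values say nothing of shared function.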

How the data were processed

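Per the file headers, the intensity of each spot had been corrected for background by Agilent Feature Extraction 10.7.3.1, which also flagged outliers and spots well above background. The deposited value table, used as an alternative, holds linear intensity with identical sorted values in its 8 columns and a lowest value of 10. The sources used here name no software for it. Control and null arrays shared 1 design and Tbx18VP16 arrays another.

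Outlier spots (1.86% to 3.14%) were left out, the 4 spots of a probe averaged, and log2 values set relative to each array's 75th percentile of the 39429 shared probes. A probe was well above background with at least 50% of its spots so marked. Probes were named through RefSeq tables of GRCm38.p6 (27508 by accession, 3544 by symbol, 404 by synonym), 5134 kept the file's name and 2839 had none. Probe coordinates are on mm9, as in the files. The brightest tested probe stood for a gene. Testing required a probe to be well above background on 3 of 6 arrays, or 2 of 8.

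Null was tested against control on 6 arrays with limma 3.58.1 (R 4.3.3), and Tbx18VP16 on all 8 in 1 fit of group means, two-sided, with Benjamini-Hochberg adjustment over all genes and a threshold of 0.05. Nothing in the labels says that pools came from separate litters, so p-values measure the spread between pools. The number of arrays limits the precision. Members, lists and rules were chosen with earlier results of these data known. All members are named, and of the 50 other pathway genes those called and up to 3 more per comparison that changed at least 2-fold, taken by p. Rbpj was added after its values were seen. The 10 marker lists were read as sums and counts, and some of their genes are not reported here.

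As a check of pairing, deviations from group means correlated at 0.794, 0.680 and 0.402 for same-numbered control and null pools, and at -0.724 to 0.296 for others. The same-numbered pools were therefore treated as pairs. Taking deviations from the mean of 3 pools itself lowers the correlations of the others. Pools 3 also share a slide, a scan and the 10 ng input, which cannot be told apart from pairing. For Tbx18VP16 pools the numbers are only names. Fits were tested on simulated data in which 50 genes changed per fold: null against control called 0, 26, 35 and 43 at 2, 4, 8 and 16-fold among 19710 genes, and Tbx18VP16 against control 3, 27, 41 and 42 among 20599.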

Additional observations from a re-analysis of the deposited data

How the results depend on the processing

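Alternatives covered background correction, normalisation, source of values, filter, probe choice, blocks, arrays in the fit and single arrays. In Tbx18VP16 over control, 1095 genes were called. With normexp 625 were called, 657 with only probes well above background on every array, and 3640 with the replicate block, whose numbers do not pair these pools (correlations of 0.0257 and -0.255 with control, 0.0585 and -0.155 with null). Leaving out 1 array (a lone Tbx18VP16 pool was then assumed to vary like the other groups) gave 40 to 1924, with Tbx18VP16 pool 2 left out at the low end and null pool 1 at the high end (296 without control pool 2, 687 without null pool 2, 52 without Tbx18VP16 pool 1). Over null, 753 genes were called, against 404 with normexp, 466 on every array, 3285 with the replicate block and 432 with only the 2 groups' arrays. Leaving out 1 array gave 0 (Tbx18VP16 pool 2) to 816, with 6 without Tbx18VP16 pool 1, 170 without null pool 2, 328 without control pool 2 and 439 without null pool 3. For null over control the 0 calls became 1 with no filter, 190 with the replicate block, 71 in a fit of all 8 arrays and 6 with the slide as a block. Leaving out 1 array gave 0 to 3, the 3 without null pool 1.

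Of the members, 2 were called in Tbx18VP16 over control. The count was 0 with normexp and with probes well above background on every array (7 tested), 1 with quantile normalisation, the authors' values and the mean of probes (Jag2 each time), 1 with the pair as a random block (Heyl, 0.0474, while Jag2 and Dll1 were lost), and 4 with the percentile over all spots and with the replicate block. Leaving out 1 array gave 0 to 4. Over null it was 1 with the replicate block (Jag2, 0.031), and 0 without 1 array. Hey1 was called with the percentile over all spots (0.0269).

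Directions that turned were those of uncalled members. With the percentile over all spots, Notch2 was at 0.08 over control and 0.07 over null, Notch4 at 0.33 and 0.06, and Notch3 at 0.31 over null. Hes1 over null was at -0.21 with normexp, -0.66 without null pool 1 and -0.17 without Tbx18VP16 pool 2 (up to 0.44 without 1 array), and Notch3 over null at 0.26 without null pool 1 (down to -0.38). In null over control, Jag1 was at -0.04 without null pool 3 (up to 0.82) and -0.02 on the first slide alone. Notch2 was there at -0.16 without control pool 1, -0.24 without null pool 2, -0.03 without control pool 3, -0.09 without null pool 3 (up to 0.34) and -0.12 on the first slide. The cause was not tested. The 477 other values of single members kept their direction and side of the threshold, 10 gained and 19 lost a call without a change of direction. Dim signal limits Dll1, Jag2 and Notch1, which were not well above background on most control arrays (Dll1, Jag2) or, by its brighter probe, on any Tbx18VP16 array (Notch1).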

Other observations

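Lists of markers not described above gave these sums of signal (log2). For 8 early nephron aggregate markers (Jag1, which the list also holds, left out) the sum lay between 3.0 and 3.78 in control, 3.79 and 5.05 in null and 2.83 and 3.0 in Tbx18VP16 pools. Wnt4, which induces nephrons, had a change of 2.89 ± 0.60 in null over control (limma, adjusted p 0.245, and 0.0207 with the pair as a block), and no other member of the list was called in the blocked fit. For 11 ureteric mesenchyme markers the sums were 6.43 to 6.79, 6.01 to 6.48 and 6.12 to 6.16 in control, null and Tbx18VP16 pools, and for 10 stroma markers 7.31 to 7.68, 7.09 to 7.54 and 7.19 to 7.35. For 7 leukocyte markers the sums were 0.30 to 0.57, 0.63 to 1.37 and 0.24 to 0.74, with Mpo well above background in no control and no Tbx18VP16 pool. Single markers departed from these sums. In Tbx18VP16 over control 3 leukocyte markers were higher and 4 lower. Tyrobp, among the higher, gave -7.15, -7.57 and -5.98 in control, -7.55, -4.72 and -1.9 in null, and -3.7 and -2.75 in Tbx18VP16 pools. Its control pools 1 and 2 and null pool 1 were not well above background. For 9 neural crest, neuron and glia markers they were 1.01 to 1.26, 1.35 to 1.54 and 0.37 to 0.57, the lowest in Tbx18VP16 pools. The erythroid sums lay between 2.85 and 4.95, 2.61 and 9.08, and 1.80 and 3.14. In Tbx18VP16 over control 8 of these 9 markers were lower and 1 higher. The higher 1, Gata1, gave -7.68, -7.77 and -5.85 in control, -6.58, -5.58 and -2.81 in null, and -3.6 and -3.1 in Tbx18VP16 pools. Its control pools 1 and 2 and null pool 1 were not well above background. The part of blood cells in the ligands' changes was not tested.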
